A study of Rattus norvegicus with 16 samples.

Results

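The comparison described here set rat pancreatic islets that had received both a PPARγ adenovirus and the PPARγ agonist GW347845 against islets that had received neither. Its members were chosen by their labels, less the doubly deposited array described below: 4 arrays of PPARγ virus with compound (replicates 1 to 4) and 3 arrays of null virus with vehicle (replicates 1, 3 and 4), 7 of the 16 samples of the series. They are called the treated and the control arrays, with the labels' replicate numbers, and values by array are given in the order of those numbers. Per the labels, every group was infected at 50 viral particles per cell for 32 h. The treated group carried an adenovirus encoding PPARγ and then spent 16 h in 200 nM GW347845. The control group carried a null adenovirus and then spent 16 h in 0.004% DMSO, so both groups carry the effects of adenoviral infection and culture. The values of the null virus vehicle sample numbered 2 equalled those of the null virus compound sample with the same number, and neither was used. The other groups, null virus with GW347845 (3 arrays) and PPARγ virus with vehicle (4 arrays), entered the model for the spread and are given as means beside the contrast. The contrast changes receptor and ligand together and does not separate them. The sources used here do not give the strain, sex and age of the rats, the species of the PPARγ cDNA, its promoter or the share of islet cells infected. Nor do the labels say whether replicates were separate islet preparations, so p-values measure the spread between these arrays, which may be technical.

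PPARγ is a nuclear receptor that pairs with the retinoid X receptor and binds direct repeats of the hexamer AGGTCA spaced by a single base. It is best known as the receptor that drives fat cell formation, where its targets take up, bind, activate and store fatty acids. Pancreatic islets are clusters of endocrine cells, mostly insulin-secreting beta cells, which express little of this receptor and store little fat. The labelled tissue was checked on its defining markers. The insulin gene Ins1 lay between 4626.9 and 7093.1 and Ins2 between 3313.5 and 4421.2 in the 7 arrays. Glucagon (Gcg) lay between 180.8 and 3910.6, and of 18 acinar markers on the array all but the elastase gene Cela1 (up to 351.1) stayed at or under 108.2. Median intensity per array was 57 to 65.1. In bulk islet RNA, fewer cells of a type and less RNA per cell cannot be told apart.

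Islets with receptor and agonist had 67 probe sets called at an adjusted p under 0.05 (limma, Benjamini-Hochberg over 10078 probe sets tested), which is 0.665% of those tested. Of these, 61 were higher (0.605%) and 6 were lower (0.0595%). The calls named 61 genes, 56 higher and 5 lower, and 4 probe sets named several genes or none. Rises ran from 0.47 to 7.20 on the log2 scale with a median of 1.24. Of the 61 rises, 39 were over 2-fold and 12 over 4-fold, while none of the 6 falls, from -0.59 to -0.92, reached 2-fold. The largest rise was that of Pparg itself, which the virus encodes. Next came the fatty acid binding protein gene Fabp4, the pleckstrin gene Plek, the glutathione transferase gene Gsta4 and the lipase inhibitor gene Angptl4. The median change over all probe sets tested was -0.03, and their median standard error was 0.17. All 67 calls were separated, with each treated array on the same side of every control array, which 8.95% of all tested probe sets were (4.06% higher and 4.89% lower). At an unadjusted p under 0.05 there were 855 probe sets, where 503.9 are expected by chance. Testing required an intensity over 39.3, the 40th percentile of the table, in 4 or more of 14 arrays. For 14 of the rises all 3 control arrays lay under that limit, so these probe sets entered the test through other arrays, and their count supports nothing by itself.

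**Figure D1:**
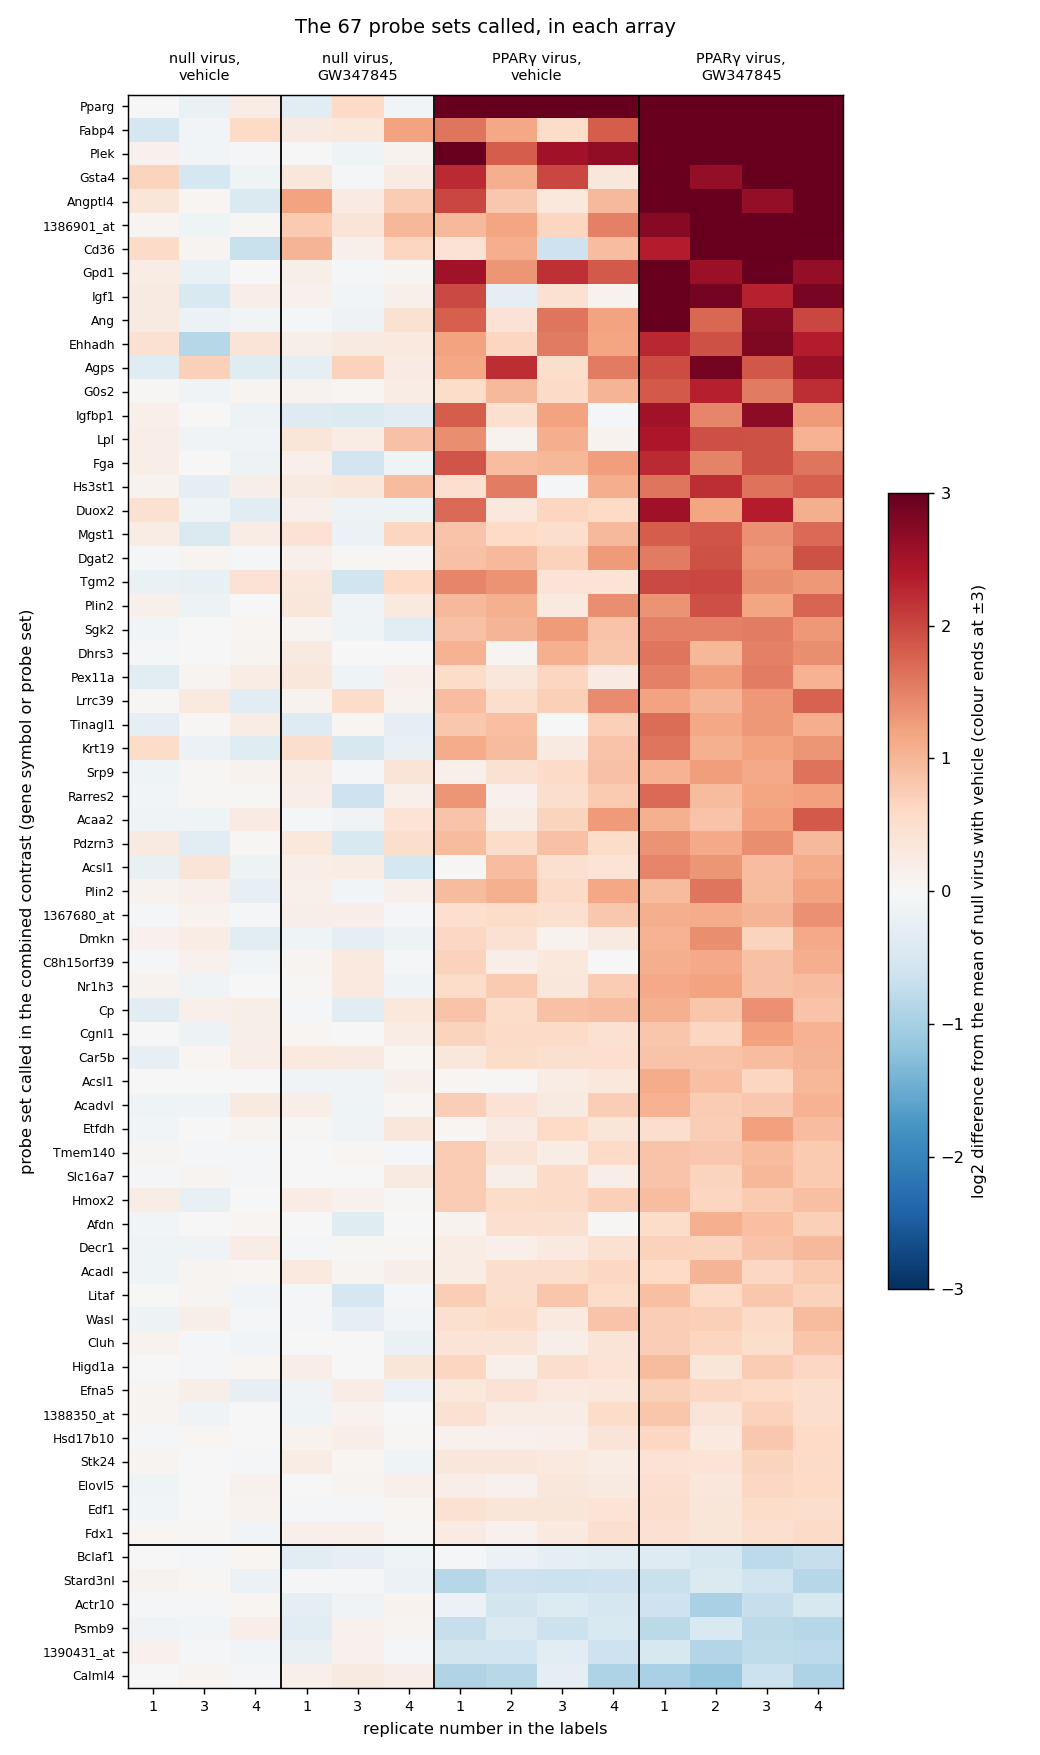
Log2 difference of each array (columns, by group and replicate number) from the mean of null virus with vehicle, for the 67 probe sets called (rows, in order of change; orange-red higher, blue lower, colour ending at 3 in either direction). The 61 rises are red in all 4 arrays of PPARγ virus with GW347845 and mostly paler with PPARγ virus and vehicle.

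**Figure D2:**
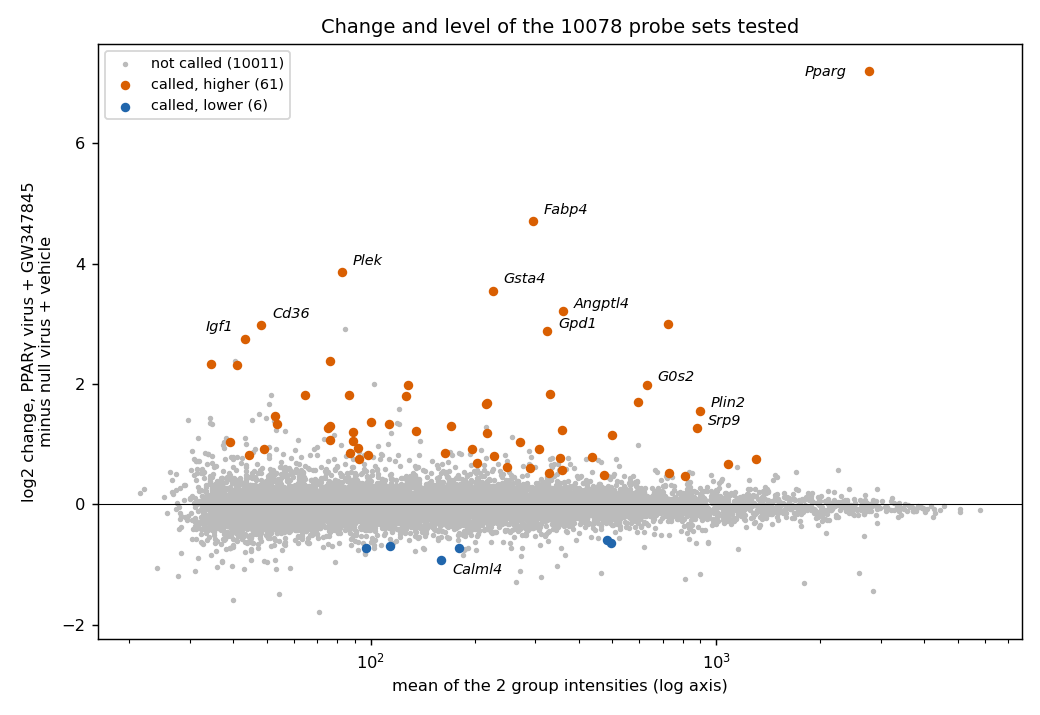
Log2 change of PPARγ virus with GW347845 minus null virus with vehicle (vertical axis) against the mean of both groups' intensities (log axis) for the 10078 probe sets tested. The 61 called rises (orange) reach 7.20 for Pparg and 4.70 for Fabp4, and the 6 called falls (blue) end at -0.92 for Calml4.

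When each of the 14 arrays in the model was left out in turn, 29 of the 67 calls, all of them rises, passed in all 14 fits. The count of calls fell to 39 without control replicate 1, to 43 without its replicate 3, to 44 without its replicate 4 and to 42 without treated replicate 4. Falls were fewest, 0, without control replicate 3. Over these fits a call was lost 207 times, 52 of them when the array left out belonged to neither compared group, and where a call was lost its change was 80.3% to 114% of that with all arrays (median 99.9%). For those 52 losses the change stays the same by the construction of the model, which draws the median toward 100%. The losses given below are losses of the call at changes within this range. Same-numbered arrays of 1 virus, with vehicle and with compound, deviated from their group means together, and with these pairs as a random block, an alternative added after the data were seen, 62 of the 67 calls passed. The other 5 were the second probe set of Acsl1 (adjusted p = 0.0508), Stk24 (0.0569), Slc16a7 (0.0651), Hsd17b10 (0.0747) and 1388350_at.

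The receptor itself was measured first. The virus encodes it, so its rise was set by the design and checks the labels. Transcripts of the virus and of the islets' own gene were not told apart. Pparg read 32.3, 27.7 and 39.1 in the control arrays and 5932.1, 4593.4, 5966.4 and 5548.7 in the arrays with receptor and agonist, a difference of 7.20 ± 0.18 (SE) on the log2 scale (adjusted p = 3.51e-12). All control values lay under the intensity limit of 39.3, and in the treated arrays Pparg ranked 1 or 2 from the top of all probe sets. No array of either group came near the other. With PPARγ virus and vehicle it averaged 5593, and with null virus and compound 35.8, each close to the compared group that shared its virus. The exact permutation p over the 7 arrays was 0.0571, the smallest that 3 arrays against 4 allow. Of the list of PPAR and RXR receptors and their coregulators, 16 of 19 genes were on the array and 10 were tested. Pparg was the only call among them, and the median change of the 10 was 0.08, against -0.02 over the 7565 genes tested.

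Several genes that release, take up, bind and activate fatty acids rose, with Fabp4 second to the receptor among all genes called. Of 25 genes listed, 24 were on the array and 17 were tested, of which 5 rose and 0 fell. Fabp4, the fatty acid binding protein of fat cells and macrophages, read 9.8, 14.9 and 26.3 in controls and 585.4, 780.7, 259.8 and 662.2 with receptor and agonist. The lowest treated array, replicate 3, was still well above the highest control (26.0-fold, log2 change 4.70 ± 0.39 SE, adjusted p = 1.29e-05). PPARγ virus with vehicle averaged 48.2 and null virus with compound 28.1. Cd36, which takes long-chain fatty acids into the cell, read 12.5, 7.6 and 2.6 in controls against 53.9, 127.1, 90.8 and 84.4 in treated arrays (7.85-fold, log2 change 2.97 ± 0.43 SE, adjusted p = 0.00284). All 3 control values lay under the intensity limit of 39.3 and all 4 treated values above it. In the other groups no array exceeded 19.9, so this probe set was tested through the treated arrays alone, and it had to differ. A second probe set, 1386901_at, which the annotation assigns to both Cd36l1 and Cd36, read 167.7, 144.1 and 160.1 in controls and 1060.5, 1487.7, 1315.8 and 1315.8 in treated arrays, where no array came near the other group (7.98-fold, log2 change 3.00 ± 0.19 SE, adjusted p = 8.95e-07).

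Angptl4 and Lpl are an inhibitor and its enzyme: lipoprotein lipase frees fatty acids from circulating triglyceride, and angiopoietin-like 4 inactivates it. Angptl4 read 83.6, 67.5 and 46.7 in controls and 722.1, 890.4, 420.8 and 581.1 with receptor and agonist (9.22-fold, log2 change 3.20 ± 0.35 SE, adjusted p = 0.00022). Its means in the other groups were 115 with compound alone and 150.2 with virus alone. Lpl read 156.8, 126.7 and 126.8 in controls against 756.3, 529.6, 527.5 and 283.6 in treated arrays (3.55-fold, log2 change 1.83 ± 0.34 SE, adjusted p = 0.0177). Both genes rose in every treated array, and for Lpl replicate 1 was highest and replicate 4 lowest. Lpl did not pass without control replicate 1, 3 or 4, or without treated replicate 1 or 3 (adjusted p 0.0547 to 0.107). Acsl1, the acyl-CoA synthetase that activates long-chain fatty acids, was called by both of its probe sets. With 1 of them it read 211.7, 212.0 and 207.6 in controls and 463.2, 396.9, 331.5 and 424.4 in treated arrays (1.89-fold, log2 change 0.92 ± 0.13 SE, adjusted p = 0.00219). Controls were nearly level and PPARγ virus with vehicle averaged 236, close to them. The other probe set rose by 1.20 ± 0.24 (adjusted p = 0.0297) and lost its call without control replicate 1 or 4 or treated replicate 1, 2 or 4 (0.0703 to 0.175). Among the members of highest intensity that did not pass, Acsl5 had a change of -0.43, Fabp5 0.19 and the lipoprotein receptor gene Vldlr 0.16. Fabp3, chosen after its values were seen, had a change of 0.46 (adjusted p = 0.629).

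**Figure D3:**
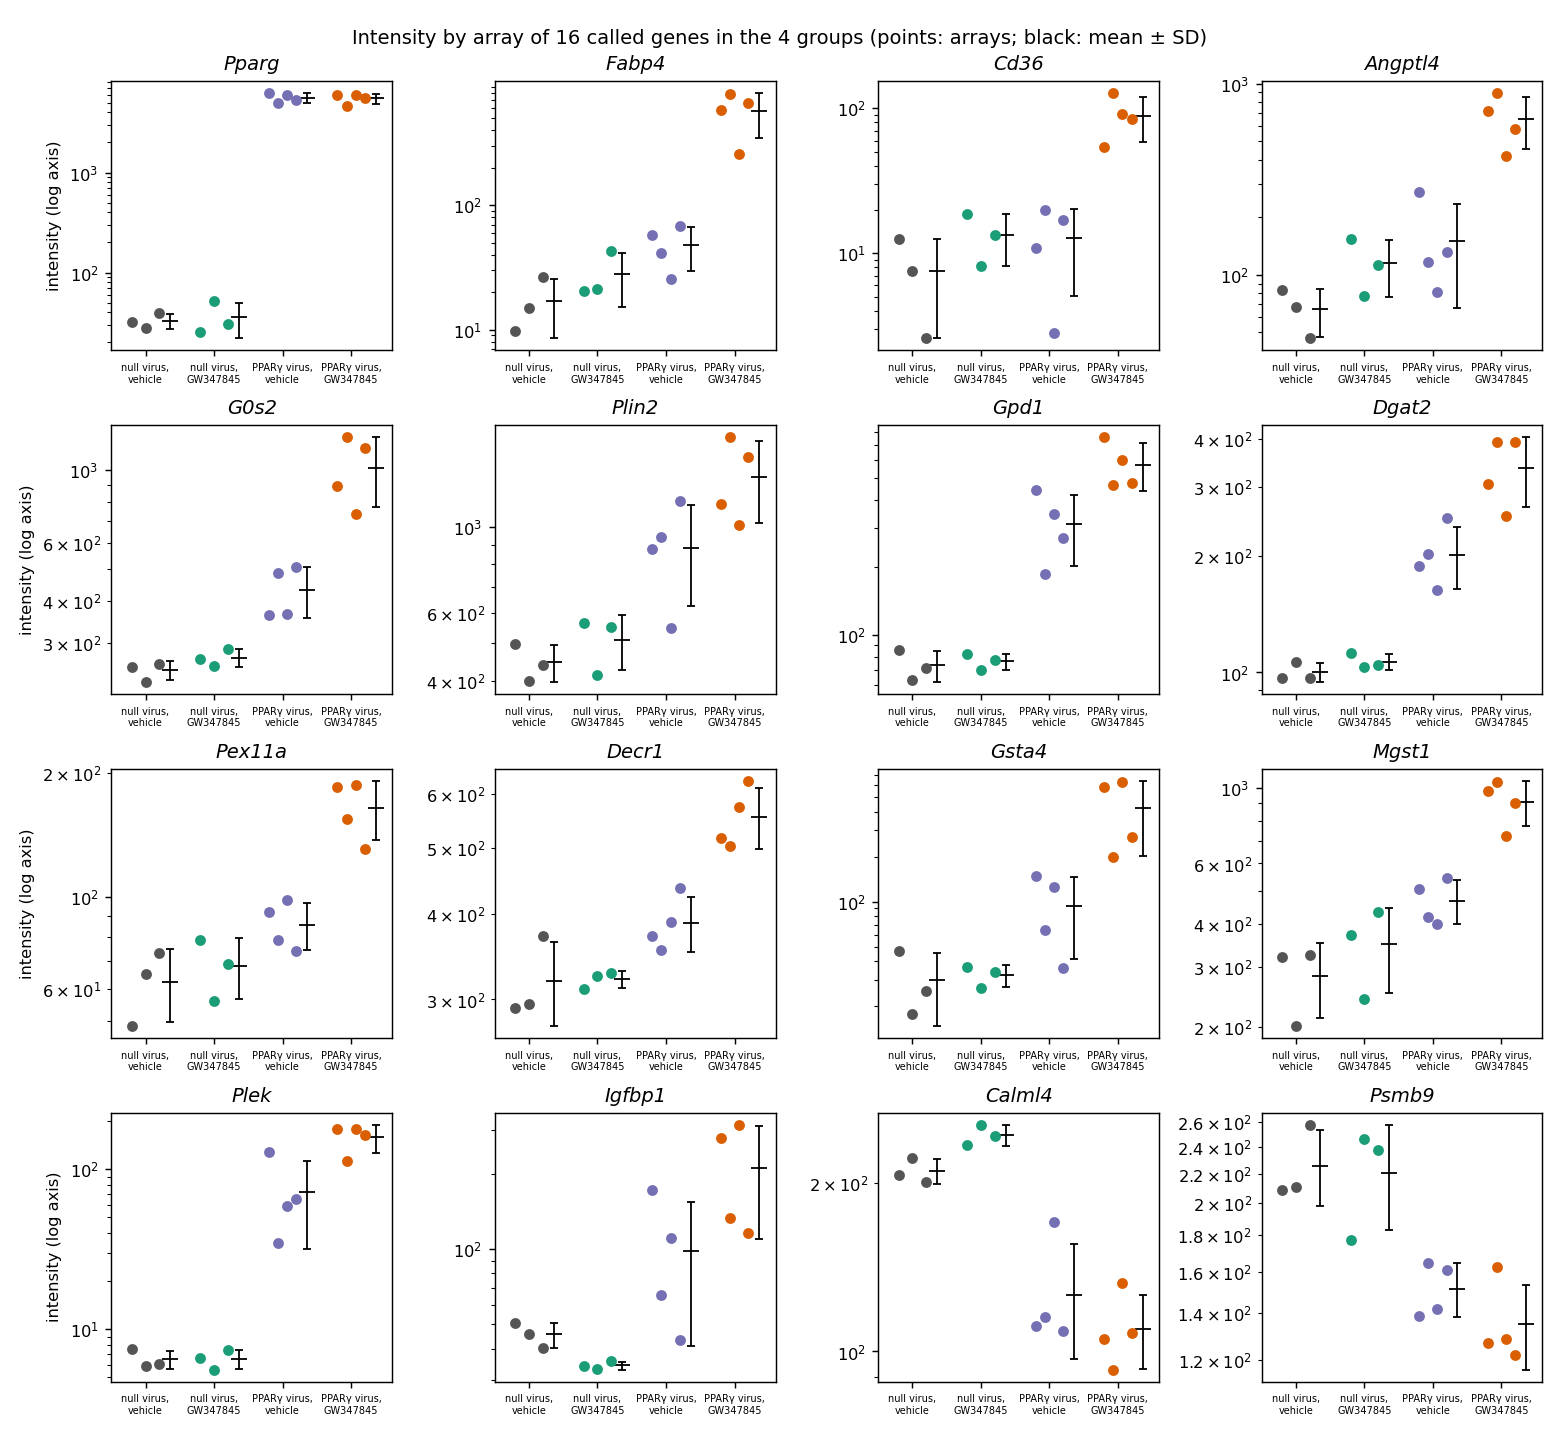
Intensity (log axes) of 16 called genes in each array of the 4 groups, with points for arrays and black bars for mean ± SD. Pparg is at 4593 to 5966 with GW347845 and as high in vehicle where the PPARγ virus was present (25.6 to 51.4 without it), Fabp4 and Cd36 lie highest where virus and compound were combined, and Calml4 and Psmb9 are lower in both groups with the PPARγ virus.

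Of 7 tested genes of droplet coat and lipolysis, 2 rose, Plin2 and G0s2. Plin2 encodes the perilipin that coats lipid droplets outside fat tissue. With 1 of its probe sets it read 498.8, 400.8 and 440.6 in controls and 1146.0, 1707.9, 1009.8 and 1515.2 with receptor and agonist (2.94-fold, log2 change 1.55 ± 0.23 SE, adjusted p = 0.0035). The other probe set of Plin2 rose by 1.18 ± 0.18. G0s2, the inhibitor of adipose triglyceride lipase, read 253.8, 228.2 and 259.4 in controls against 895.2, 1255.6, 737.4 and 1167.1 in treated arrays (3.96-fold, log2 change 1.99 ± 0.17 SE, adjusted p = 2.09e-05). Replicates 2 and 4 were the highest treated arrays for both genes, and both genes passed in all 14 fits that left out an array. With PPARγ virus and vehicle, Plin2 averaged 884 and G0s2 432. The list held 17 genes, of which 13 were on the array. The median change of the 7 tested was 0.86, and all 7 had a positive change. Hilpda, which encodes a further inhibitor of the same lipase, read 196.4, 172.7 and 109.6 in controls against 384.0, 483.3, 244.1 and 307.3 in treated arrays, without overlap, but did not pass (1.13, adjusted p = 0.323). Plin3 had a change of 0.36 and Fitm2 of 0.30. Pnpla2, the lipase that G0s2 inhibits, was looked at after its values were seen and had a change of 0.86 (adjusted p = 0.127).

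Triglyceride synthesis was represented at its glycerol supply and at its last step. Gpd1 makes glycerol 3-phosphate, the backbone of triglyceride, from a product of glycolysis. It read 85.4, 62.7 and 71.6 in controls and 761.4, 463.9, 599.3 and 474.6 with receptor and agonist (7.35-fold, log2 change 2.88 ± 0.24 SE, adjusted p = 1.29e-05). Dgat2, which adds the last fatty acid, read 96.9, 106.5 and 96.9 in controls against 305.7, 391.3, 252.2 and 391.7 in treated arrays (3.2-fold, log2 change 1.68 ± 0.16 SE, adjusted p = 7.27e-05). Neither gene overlapped between groups, and both passed in all 14 fits that left out an array. In PPARγ virus with vehicle Gpd1 averaged 312 and Dgat2 201. Null virus with compound averaged 76.2 and 106, near the control means of 73.2 ± 11.4 (SD, n = 3) and 100.1 ± 5.54 (SD, n = 3). Of 23 genes listed, 18 were on the array and 14 tested, of which 2 rose and 0 fell, with a median change of 0.26. Dgat1, the other enzyme of the last step, had a change of 0.29 and Agpat5 of -0.19, neither passing. The glycerol channel gene Aqp7, chosen after its values were seen, read 30.0, 29.2 and 34.3 in controls and 60.1, 48.2, 45.8 and 59.3 in treated arrays and did not pass (0.69, adjusted p = 0.102).

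Peroxisomes shorten very long fatty acids and begin the synthesis of ether lipids. Ehhadh, the bifunctional enzyme of peroxisomal beta-oxidation, read 12.6, 2.4 and 11.9 in controls and 55.4, 42.4, 82.6 and 59.4 with receptor and agonist (5.01-fold, log2 change 2.32 ± 0.33 SE, adjusted p = 0.00284). All control arrays were under the intensity limit, and this probe set too was tested through the treated arrays alone. Pex11a, which drives peroxisome elongation and division, read 48.8, 65.2 and 73.1 in controls against 184.4, 154.2, 187.0 and 130.7 in treated arrays (2.52-fold, log2 change 1.34 ± 0.17 SE, adjusted p = 0.00137). PPARγ virus with vehicle averaged 85.7 for Pex11a, between the control mean and the treated mean but nearer the control. Agps, an enzyme of ether lipid synthesis in peroxisomes that was not on the list, read 6.7, 19.4 and 6.8 in controls against 51.8, 101.6, 48.4 and 83.7 in treated arrays (4.99-fold, log2 change 2.32 ± 0.41 SE, adjusted p = 0.013). It did not pass without control replicate 1 or 4 (adjusted p = 0.0905 and 0.0932) or treated replicate 4 (0.0543), nor with the doubly deposited array kept as null virus vehicle (0.103) or with all 16 columns (0.145). The probe set 1388350_at, annotated to both LOC102548286 and Pex19, rose by 0.61 (adjusted p = 0.0446) and passed in 2 of the 14 fits. Of 30 genes listed for peroxisomes, 23 were on the array and 19 tested, of which 2 rose and 0 fell, with a median of 0.13. The members of highest intensity that did not pass were the carrier gene Scp2 (0.44), Ech1 (0.51) and the transporter gene Abcd3 (0.13), and Eci2, chosen after its values were seen, had a change of 0.72 (adjusted p = 0.127).

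Mitochondrial beta-oxidation enzymes were the list with the most calls beside fatty acid uptake. Of 25 genes listed, 23 were on the array and 19 tested, of which 5 rose, 0 fell and 14 did not pass, with a median change of 0.42. Acadvl, the dehydrogenase that opens the oxidation of very long chains, read 122.0, 122.3 and 161.9 in controls and 281.1, 230.3, 239.7 and 279.8 with receptor and agonist (0.91 ± 0.15, adjusted p = 0.00791). Acadl, its long-chain counterpart, read 237.7, 273.7 and 269.1 in controls against 398.4, 534.3, 402.2 and 453.9 in treated arrays (0.76 ± 0.13, adjusted p = 0.00927). For both genes the lowest treated array stood above the highest control. Acaa2, the thiolase of the last step, read 191.8, 186.9 and 243.5 in controls against 434.3, 373.6, 490.1 and 743.2 in treated arrays (1.24 ± 0.25, adjusted p = 0.0306). Decr1, which prepares unsaturated fatty acids for oxidation, read 291.7, 295.3 and 371.3 in controls against 517.0, 504.6, 574.9 and 627.8 in treated arrays (0.79 ± 0.12, adjusted p = 0.00384). Etfdh, which passes electrons from these dehydrogenases to the respiratory chain, rose by 0.85 (adjusted p = 0.0401). Acaa2 had the largest of these changes at 2.36-fold, with treated replicate 4 highest.

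Decr1 passed in all 14 fits that left out an array. Acadvl did not pass without control replicate 1 or 3 (adjusted p = 0.0661 and 0.0558), and Acadl not without its replicate 1 (0.0778). Acaa2 lost its call without any 1 of the 3 control arrays or without treated replicate 1, 3 or 4 (0.059 to 0.159), and Etfdh in 9 of the 14 fits, the 3 control arrays among them (0.0547 to 0.193). Hadh, the member of highest intensity that did not pass, had a change of 0.02. The following 3 genes, chosen after their values were seen, did not pass either. The acylcarnitine carrier gene Slc25a20 read 271.5, 257.8 and 258.0 in controls against 365.2, 355.5, 458.8 and 454.0 in treated arrays (0.62, adjusted p = 0.118). Cpt1a, the gate of mitochondrial fatty acid entry, read 157.0, 237.4 and 218.1 in controls against 168.3, 426.6, 233.7 and 388.6 in treated arrays, with overlap (0.49, adjusted p = 0.785). Pdk4, which restrains pyruvate oxidation, read 41.0, 38.7 and 44.6 in controls against 74.2, 49.8, 64.0 and 53.2 in treated arrays (0.48, adjusted p = 0.365). Of 16 genes tested on pyruvate fate and uncoupling, 0 passed, while 2 were higher at an unadjusted p under 0.05.

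Other mitochondrial proteins were among the calls. Car5b, a mitochondrial carbonic anhydrase, rose by 0.92 ± 0.15 (adjusted p = 0.00632), and its other probe set had a change of 0.79 that did not pass. Cluh, which binds messenger RNAs of mitochondrial proteins, rose by 0.69 ± 0.11 (adjusted p = 0.00753). Both passed in all 14 fits that left out an array. Higd1a, a mitochondrial protein induced by low oxygen, rose by 0.68 with 1 probe set, while the other had a change of 0.44 that did not pass. Fdx1, the ferredoxin of steroid and heme metabolism, rose by 0.47, and Hsd17b10, a dehydrogenase of branched-chain and fatty acid breakdown, by 0.58. Each of these last genes lost its call without any 1 control array, and they passed in 5, 3 and 2 of the 14 fits (adjusted p 0.053 to 0.215 where lost). Of 37 citrate cycle and respiratory chain genes tested, 0 passed in limma, with a median change of 0.00. At an unadjusted p under 0.05, 1 was higher and 3 were lower.

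Taking the lists of fatty acid uptake, lipid droplets, triglyceride synthesis, peroxisomes and mitochondrial oxidation as a union, 101 of 120 genes were on the array and 76 were tested. Of these 76, 16 rose (21.1%) and 0 fell, with a median change of 0.30. The 16 include Cd36 and Ehhadh, which were tested through the treated arrays alone and had to differ, so they add no support to this share. Over all 7565 genes tested, 53 rose (0.701%) and 4 fell, with a median of -0.02. Without PPARγ virus replicates 2 and 4, in both vehicle and compound, 12 of the union's genes passed, not all of them among the 16. Of the 16, Acadvl (adjusted p = 0.0552), Acadl (0.0765) and Etfdh (0.152) did not pass, and Cd36 and Ehhadh fell to the filter in that reading. This reading was added after the data were seen because those arrays were low in islet hormones other than insulin.

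The lists of fatty acid synthesis and of cholesterol genes held 1 call each, where 0.701% of all genes tested rose. Of 15 tested genes of fatty acid synthesis, elongation and desaturation, 1 rose. Elovl5, an elongase of polyunsaturated fatty acids, read 540.9, 603.9 and 649.0 in controls and 851.1, 754.6, 922.0 and 906.1 in treated arrays (0.52 ± 0.10, adjusted p = 0.0295). It did not pass without control replicate 1 or 3 or treated replicate 1, 3 or 4 (0.0787 to 0.19). The list's median was -0.15, and its members of highest intensity, Acly (-0.23) and Scd2 (-0.22), did not pass. Of 23 tested cholesterol genes, 1 rose and the median was 0.17. Nr1h3, the oxysterol receptor LXRα, read 26.0, 21.8 and 24.4 in controls against 58.5, 61.1, 48.1 and 49.6 in treated arrays (1.04 ± 0.18, adjusted p = 0.00927), with all controls below the intensity limit. Nr1h3 did not pass without control replicate 3 (0.0593). Abcg1, a sterol exporter and LXR target, had a change of 0.37 (adjusted p = 0.438), Npc2 of -0.12 and the sterol synthesis gene Cyp51 of -0.15. The cholesterol esterification gene Soat1, chosen after its values were seen, had a change of 0.75 (adjusted p = 0.184). Outside the lists, Dhrs3, which reduces retinal to retinol, rose by 1.37 ± 0.21 (adjusted p = 0.00476) and passed in all 14 fits. Slc16a7, a monocarboxylate transporter, rose by 0.83 (adjusted p = 0.0455) and passed in 3 of them.

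Since PPARγ binds DNA, the 250 bases before the start of the genes that rose were searched for its element in RefSeq promoters of the rat build GRCr8. The table matched 44 of the 56 genes that rose and 5 of the 5 that fell. The 12 rises without a match included Fabp4, Plek, Gpd1, Lpl and Dgat2, so the search leaves out several of the largest changes. On either strand, the full element AGGTCANAGGTCA was found in 0 of the 44, in 0 of 6353 tested genes and in 0.0583% of 27457 genes in the table. The looser form AGGNCANAGGNCA, which includes the full element, was found in 1 of the 44 (2.27%), against 0.268% of tested genes and 0.379% of the table. The hexamer AGGTCA alone was in 5 of the 44 (11.4%), against 11.4% of tested genes and 14.8% of the table. It lay in Acadvl, Fdx1, Rarres2, Hmox2 and Tinagl1, and in none of the 5 genes that fell. These are matches of letters in a short window. Parts of 4 of these promoters are shown because they hold the matches, with the match in capitals and all sequences running 5′ to 3′ on the gene's strand, where TGACCT is AGGTCA on the other strand. Tinagl1, at chr5:147807264-147807326 on the minus strand, holds the looser repeat 28 to 16 bases before the start, reading on the other strand. Acadvl, at chr10:55236706-55236909, Hmox2, at chr10:11318801-11318876, and Rarres2, at chr4:78856511-78856586, are also on the minus strand and hold the single hexamer, which Acadvl holds at 2 places.
Tinagl1: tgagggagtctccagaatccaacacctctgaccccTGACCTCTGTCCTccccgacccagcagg
Acadvl: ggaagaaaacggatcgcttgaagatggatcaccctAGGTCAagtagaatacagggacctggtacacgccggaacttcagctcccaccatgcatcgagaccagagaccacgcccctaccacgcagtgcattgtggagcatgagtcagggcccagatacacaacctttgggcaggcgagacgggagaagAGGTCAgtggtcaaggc
Hmox2: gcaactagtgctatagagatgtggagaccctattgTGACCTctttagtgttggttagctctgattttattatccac
Rarres2: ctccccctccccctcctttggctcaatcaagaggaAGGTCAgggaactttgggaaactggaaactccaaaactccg

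Glutathione chemistry held further large rises. Gsta4, the glutathione transferase that clears the lipid peroxidation product hydroxynonenal, read 46.9, 17.8 and 25.1 in controls and 587.2, 197.6, 630.0 and 271.4 with receptor and agonist (11.7-fold, log2 change 3.55 ± 0.46 SE, adjusted p = 0.00142). Treated replicates 1 and 3 were highest, replicates 2 and 4 lowest, and all lay above every control. Treated replicates 2 and 4 were also the arrays low in islet hormones other than insulin, and without these replicates in both PPARγ virus groups the change of Gsta4 was 4.24. Mgst1, a membrane-bound glutathione transferase and peroxidase, read 320.2, 201.4 and 323.4 in controls against 977.8, 1035.5, 721.1 and 899.6 in treated arrays (3.23-fold, log2 change 1.69 ± 0.21 SE, adjusted p = 0.00093). Hmox2, the constitutive heme oxygenase, read 81.9, 59.4 and 69.1 in controls against 137.4, 111.6, 123.0 and 134.4 in treated arrays (0.82 ± 0.13, adjusted p = 0.00503). Its PPARγ virus vehicle mean of 112 was near the treated mean of 127 ± 11.8 (SD, n = 4), whereas Gsta4 averaged 93.8 and Mgst1 467 with virus and vehicle. These 3 genes passed in all 14 fits that left out an array. Of 30 genes tested for glutathione transferases and redox defence, 3 rose, 0 fell and the median was -0.07. Txn1, the member of highest intensity that did not pass, had a change of -0.11. Duox2, an oxidase that produces hydrogen peroxide, read 69.1, 44.8 and 38.2 in controls against 310.6, 118.1, 271.2 and 110.1 in treated arrays (3.48-fold, log2 change 1.80 ± 0.37 SE, adjusted p = 0.0418). Its treated arrays spread widely, with replicates 1 and 3 high, and without PPARγ virus replicates 2 and 4 the change was 2.45. The call was lost in 10 of the 14 fits, among them without any 1 of the 3 control arrays or treated replicate 1 or 3 (0.0572 to 0.211).

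Of 17 tested genes of insulin-like growth factors, receptors and substrates, 2 rose, Igfbp1 and Sgk2, and 0 fell. Igf1, insulin-like growth factor 1, read 10.1, 4.2 and 9.3 in controls and 92.7, 84.5, 55.2 and 82.9 with receptor and agonist on 1 probe set (6.75-fold, log2 change 2.75 ± 0.42 SE, adjusted p = 0.00469). All controls were under the intensity limit, and the other probe set of Igf1 had a change of 0.58 that did not pass (adjusted p = 0.317). Igfbp1, a binding protein of this factor, read 50.8, 45.6 and 40.2 in controls against 280.1, 132.8, 315.1 and 116.4 in treated arrays (3.95-fold, log2 change 1.98 ± 0.39 SE, adjusted p = 0.0306). Sgk2, a kinase downstream of insulin signalling, read 24.2, 26.2 and 27.4 in controls against 82.4, 82.3, 83.5 and 70.1 in treated arrays (2.75-fold, log2 change 1.46 ± 0.16 SE, adjusted p = 0.000184). The Sgk2 values were tight in both groups, with 57.0 on average in PPARγ virus with vehicle. Igfbp1 did not pass without any 1 of the 3 control arrays or treated replicate 1 or 3 (0.0949 to 0.156), while Igf1 and Sgk2 passed in all 14 fits. Without PPARγ virus replicates 2 and 4 the change of Igfbp1 was 2.59. The median of the list was 0.16, and 13 of the 17 had a positive change. Igf1 stood in this list by its other probe set. Igfbp2, a further binding protein of this factor, chosen after its values were seen, read 30.1, 40.1 and 47.0 in controls against 33.5, 9.8, 14.1 and 7.8 in treated arrays. Its change of -1.19 ± 0.34 was the lowest of the list and did not pass (adjusted p = 0.187), although it did without treated replicate 1 (-1.53, adjusted p = 0.022).

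Ang, Fga, Cp, Rarres2, Dmkn and Tinagl1, gathered from the calls and not a list, encode secreted proteins. Ang encodes angiogenin, a secreted ribonuclease, and read 24.9, 17.1 and 18.7 in controls and 196.9, 77.1, 160.1 and 94.3 in treated arrays (5.2-fold, log2 change 2.38 ± 0.34 SE, adjusted p = 0.00284). Fga, the fibrinogen alpha chain, read 29.3, 25.1 and 22.7 in controls against 137.1, 79.9, 109.5 and 87.8 in treated arrays (3.51-fold, log2 change 1.81 ± 0.25 SE, adjusted p = 0.00219). A further Fga probe set had a larger change of 2.92 that did not pass (adjusted p = 0.109). With PPARγ virus and vehicle, Ang averaged 58.0 and Fga 71.1, and with null virus and compound both stayed near their control means at 21.9 and 22.5. Cp, the copper protein ceruloplasmin, rose by 1.03 (adjusted p = 0.013) on 1 probe set, and the others had changes of 0.74 and 0.21 that did not pass. Rarres2, the adipokine chemerin, rose by 1.26 (adjusted p = 0.0453), Dmkn, dermokine, by 1.06 (adjusted p = 0.0134) and Tinagl1, a matrix protein, by 1.30 (adjusted p = 0.00927). Ang and Fga passed in all 14 fits. Cp and Tinagl1 were lost without control replicate 1 (0.103 and 0.0778), Dmkn without control replicate 4 (0.1) or treated replicate 4 (0.0543), and Rarres2 in 10 fits, the 3 control arrays among them (0.0582 to 0.193).

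Hs3st1, a heparan sulfate sulfotransferase, and Tgm2, which crosslinks proteins, modify the cell surface and matrix. Hs3st1 read 38.3, 28.5 and 40.5 in controls and 118.0, 180.7, 118.7 and 133.8 with receptor and agonist (3.51-fold, log2 change 1.81 ± 0.30 SE, adjusted p = 0.00901). Tgm2 read 85.3, 83.0 and 133.8 in controls against 398.8, 405.1, 266.7 and 247.2 in treated arrays (3.17-fold, log2 change 1.66 ± 0.33 SE, adjusted p = 0.0295). Neither overlapped, and the highest Tgm2 control, control replicate 4, lay at little more than the PPARγ virus vehicle replicates 3 and 4 (277.4, 259.0, 132.7 and 131.2 over replicates 1 to 4). Hs3st1 did not pass without control replicate 3 (0.0603), and Tgm2 not without control replicate 1 or 3 or treated replicate 1 or 2 (0.0718 to 0.159). The ephrin ligand gene Efna5 rose by 0.61 (adjusted p = 0.0391) and passed in 2 of the 14 fits, in none of those without a control array (0.0518 to 0.211).

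Plek encodes pleckstrin, a signalling protein best known from platelets and white blood cells. It read 7.5, 5.9 and 6.1 in controls and 178.4, 112.4, 178.8 and 163.7 with receptor and agonist (14.5-fold, log2 change 3.86 ± 0.31 SE, adjusted p = 1.25e-05). It was already at 71.8 on average with PPARγ virus and vehicle, and at 6.53 with compound alone. Plek stands in the leukocyte marker list, where it was the single call among 10 tested members (18 of 23 on the array), whose median change was -0.07. The summed intensity of that list without Plek was 799.8 to 1161.8 in controls and 773.0 to 1159.0 in treated arrays. Its defining member Ptprc (CD45) lay between 12.2 and 29.2 and the T cell gene Cd3e between 0.4 and 8.5 in the 7 arrays. Other members were brighter, with Lyz2 between 103.4 and 280.5 and Fcer1g between 117.8 and 179.9. Aif1, chosen after its values were seen, averaged 74.4 in controls and 51.9 in treated arrays, without overlap, and did not pass (-0.49, adjusted p = 0.391).

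Krt19, a keratin of duct cells, read 141.5, 83.4 and 72.2 in controls and 296.1, 205.0, 226.3 and 245.2 with receptor and agonist (2.47-fold, log2 change 1.30 ± 0.27 SE, adjusted p = 0.0391). It was the single call of 9 tested duct markers (12 of 15 on the array), whose median was 0.07, and it passed in 6 of the 14 fits. It was lost without control replicate 3 or 4 (0.177 and 0.211), and without treated replicate 1, 3 or 4, null virus compound replicate 4 or PPARγ virus vehicle replicate 2 or 4 (0.0519 to 0.128). The summed duct markers without Krt19 were 6098.8 to 7536.1 in controls and 6273.0 to 7152.1 in treated arrays. Krt7 (0.13) and Epcam (-0.05), both of high intensity, did not pass, and neither did the bicarbonate transporter gene Slc4a4, chosen after its values were seen (0.63, adjusted p = 0.203). Krt18 (0.38, adjusted p = 0.318) and Aqp1 (-0.67, adjusted p = 0.171), also chosen so, did not overlap between the groups but did not pass. At an unadjusted p under 0.05, 3 of the tested duct markers were higher and 1 was lower. Further single calls, on no list, were as follows. Cgnl1, a tight junction protein, rose by 0.94 (adjusted p = 0.00469), Afdn, an adherens junction protein, by 0.81 (adjusted p = 0.0276) and Wasl, an activator of actin branching, by 0.75 (adjusted p = 0.0295). The other probe set of Wasl had a change of 0.48 that did not pass. Pdzrn3, a ubiquitin ligase, rose by 1.22 and the kinase gene Stk24 by 0.52. Cgnl1 passed in all 14 fits, Pdzrn3 in 11, Wasl in 9, Afdn in 8 and Stk24 in 3, and control replicate 4 was among the arrays each of the last 4 needed (0.0599 to 0.18 without it).

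Among the remaining rises, Srp9, a subunit of the signal recognition particle, rose from 511 ± 41.7 (SD, n = 3) to 1248 ± 242 (SD, n = 4), a change of 1.27 ± 0.17 (adjusted p = 0.00219). Litaf, an endosomal membrane protein, went from 971 ± 61.1 (SD, n = 3) to 1639.8 ± 156 (SD, n = 4), with 1543 in PPARγ virus with vehicle (0.75, adjusted p = 0.00753). Tmem140 rose by 0.85, C8h15orf39 by 1.05 and the unnamed probe set 1367680_at by 1.15. These calls, with Srp9 and Litaf, passed in all 14 fits. Lrrc39, a muscle sarcomere protein, rose by 1.33 and Edf1, a coactivator, by 0.49. Lrrc39 was lost without control replicate 1 or 4 or treated replicate 4 (0.0543 to 0.107), and Edf1 without control replicate 1 or 3 or treated replicate 1, 3 or 4 (0.0674 to 0.138).

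Calls toward lower intensity were few and small. Calml4, a calmodulin-like protein, read 207.1, 222.4 and 201.4 in controls and 105.3, 92.8, 132.6 and 108.1 with receptor and agonist (log2 change -0.92 ± 0.15 SE, adjusted p = 0.00901). Psmb9, an inducible catalytic subunit of the immunoproteasome, read 208.3, 210.7 and 257.4 in controls against 126.7, 162.3, 128.4 and 122.0 in treated arrays (log2 change -0.72 ± 0.14 SE, adjusted p = 0.0306). Stard3nl, a protein of contacts between endosomes and the endoplasmic reticulum, read 654.0, 628.9 and 535.2 in controls against 379.3, 447.4, 395.0 and 329.6 in treated arrays (log2 change -0.64 ± 0.12 SE, adjusted p = 0.0176). In these 3 genes PPARγ virus with vehicle averaged 126, 151 and 377, close to the treated means of 109.7 ± 16.7, 135 ± 18.5 and 388 ± 48.5 (SD, n = 4). Bclaf1, a nuclear RNA-processing factor, read 583.0, 552.0 and 600.9 in controls against 439.0, 411.7, 334.2 and 358.9 in treated arrays (log2 change -0.59 ± 0.11 SE, adjusted p = 0.0276). Actr10, a subunit of the dynactin motor complex, read 136.9, 138.6 and 148.0 in controls against 90.2, 69.5, 86.3 and 99.1 in treated arrays (log2 change -0.69 ± 0.14 SE, adjusted p = 0.0366). The other probe sets of Bclaf1 and Actr10 had changes of -0.08 and -0.12 and did not pass. The sixth fall, probe set 1390431_at, names no gene (-0.73, adjusted p = 0.0147).

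None of the falls passed in all 14 fits that left out an array. Calml4 was lost without control replicate 3 (adjusted p = 0.0566). Psmb9 was lost without any 1 control array or without treated replicate 1, 3 or 4 (0.0792 to 0.176), and Stard3nl without control replicate 1 or 3 or treated replicate 1 or 4 (0.059 to 0.132). Bclaf1 was lost without any 1 control array or treated replicate 3 or 4 (0.0736 to 0.138), and Actr10 in 9 fits (0.0502 to 0.165). Of 13 tested genes of the immunoproteasome and MHC class I processing, 1 fell, Psmb9, and the median was -0.02. Canx, a chaperone gene of the list, had a change of 0.16, and the peptide transporter gene Tap1, chosen after its values were seen, -0.62 (adjusted p = 0.53). Of 20 interferon and antiviral genes tested, 0 passed in limma (1 higher and 3 lower at an unadjusted p under 0.05), and Ifi27 (-0.34), Usp18 (-0.35) and Rsad2 (-0.34) had the highest intensities among them.

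**Figure D4:**
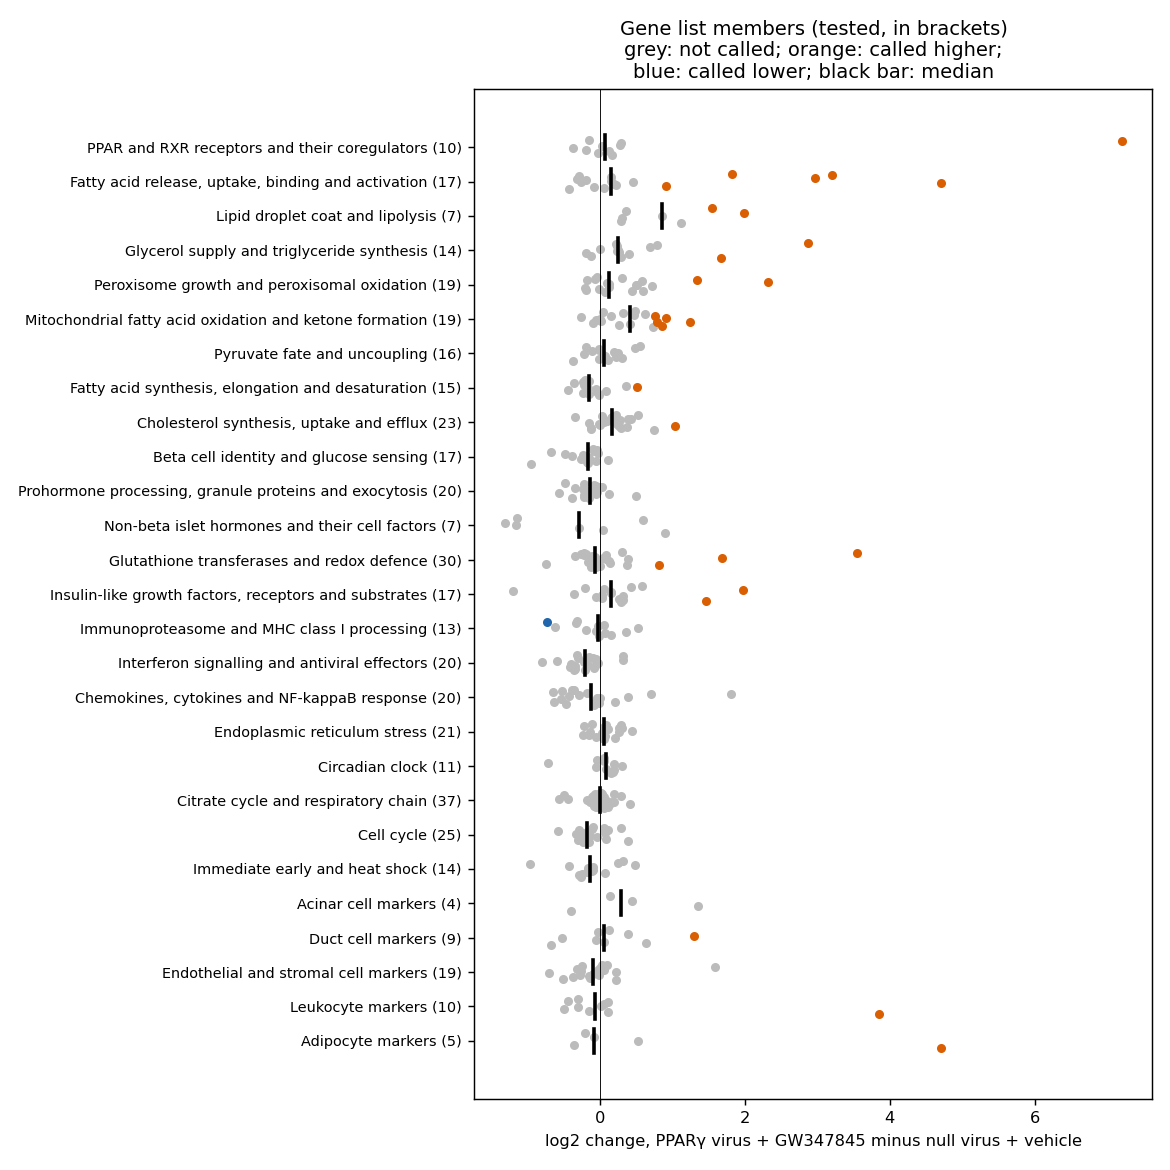
Log2 change of each tested member (points) of the 27 gene lists, with the number tested in brackets and the median as a black bar. Called members (orange higher, blue lower) lie in the lipid lists, the receptor and glutathione lists and as 1 or 2 genes of other lists, while medians lie between -0.29 and 0.86.

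Hormone and beta cell genes gave no calls. Of 17 tested genes of beta cell identity and glucose sensing (19 of 30 on the array), 0 passed in limma, and 0 were higher and 3 lower at an unadjusted p under 0.05. Their median change was -0.16, and 1 of the 17 had a positive change. Over all 7565 genes tested, 53 rose (0.701%) and 4 fell, so a list of this size would mostly hold 0 calls. Ins1 read 5580.3, 5331.9 and 7093.1 in controls and 5818.7, 4626.9, 6134.2 and 5962.7 with receptor and agonist, a change of -0.09 ± 0.11, and Ins2 had a change of -0.04 ± 0.09. The groups overlapped for both insulin genes. The following 3 members, chosen after their values were seen, had larger differences that did not pass. Pdx1, the central transcription factor of beta cells, read 312.5, 399.6 and 435.2 in controls and 208.3, 214.0, 272.2 and 254.1 in treated arrays (-0.67 ± 0.16, adjusted p = 0.0904). Gjd2, the gap junction gene that couples beta cells, read 69.7, 60.8 and 71.6 in controls against 36.3, 30.3, 39.4 and 25.6 in treated arrays (-0.95 ± 0.23, adjusted p = 0.0975). Every treated array was below every control for both genes, as were 4.89% of all probe sets tested. Under alternatives, Pdx1 passed with a replicate block over all 4 groups (-0.66, adjusted p = 0.0099) and with all 16 columns (-0.74, 0.0229). It also passed with the doubly deposited array kept as null virus vehicle (0.0218) and without null virus compound replicate 1 (0.046). Gjd2 passed without PPARγ virus vehicle replicate 1 (0.025). Neither passed in any other alternative. Neurod1, a further beta cell factor, read 2036.7, 2526.6 and 2696.7 in controls against 1670.9, 2258.0, 1532.9 and 1499.8 in treated arrays, with overlap (-0.48, adjusted p = 0.449). Of 20 tested genes of prohormone processing, granule proteins and exocytosis, 0 passed (0 higher and 1 lower unadjusted), the median was -0.13, and the granin gene Chgb had a change of -0.22.

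Hormones of other islet cells varied between arrays far more than the insulins. Gcg read 2621.2, 2834.3 and 3423.3 in controls and 3606.2, 180.8, 3910.6 and 1221.3 in treated arrays, Ppy (pancreatic polypeptide) 1707.5, 917.7 and 3919.4 in controls against 2689.2, 67.6, 2172.4 and 720.4 in treated arrays, and Pyy (peptide YY) 824.3, 485.3 and 1584.0 in controls against 1548.6, 49.9, 1536.9 and 169.0 in treated arrays. For all 3 hormones treated replicates 2 and 4 were below every control array and replicates 1 and 3 were not. The summed intensity of the non-beta hormone list was 5589, 4755 and 9393 in controls and 9118, 590.0, 9548 and 2450 in treated arrays, and in PPARγ virus with vehicle replicates 2 and 4 were low too, at 1125 and 2558. None of the 7 tested members passed in limma, and 0 were past an unadjusted p of 0.05 in either direction. Of these 7, 3 had a positive change, among them Sst and Ttr, which were picked with their values already known. Sst averaged 247 ± 80.2 (SD, n = 3) in controls and 529 ± 527 (SD, n = 4) in treated arrays (0.60, adjusted p = 0.899). Ttr averaged 102 ± 35.9 (SD, n = 3) and 315 ± 297 (SD, n = 4) (0.90, adjusted p = 0.865). The groups overlapped for both genes. Leaving out both low replicates in both PPARγ virus groups, an alternative added after the data were seen, gave 72 calls (68 higher and 4 lower), of which 38 were among the 67. In that reading 62 of the 67 were tested, and the other 5 fell to the filter. Of the 5 named falls, none passed in that reading (adjusted p from 0.0526 for Stard3nl to 0.102 for Bclaf1), at changes of -0.81 for Calml4, -0.79 for Psmb9, -0.65 for Actr10, -0.64 for Stard3nl and -0.59 for Bclaf1, while Pparg, Fabp4, Plek, Gsta4, Angptl4, Gpd1, Plin2, G0s2 and Dgat2 did.

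**Figure D5:**
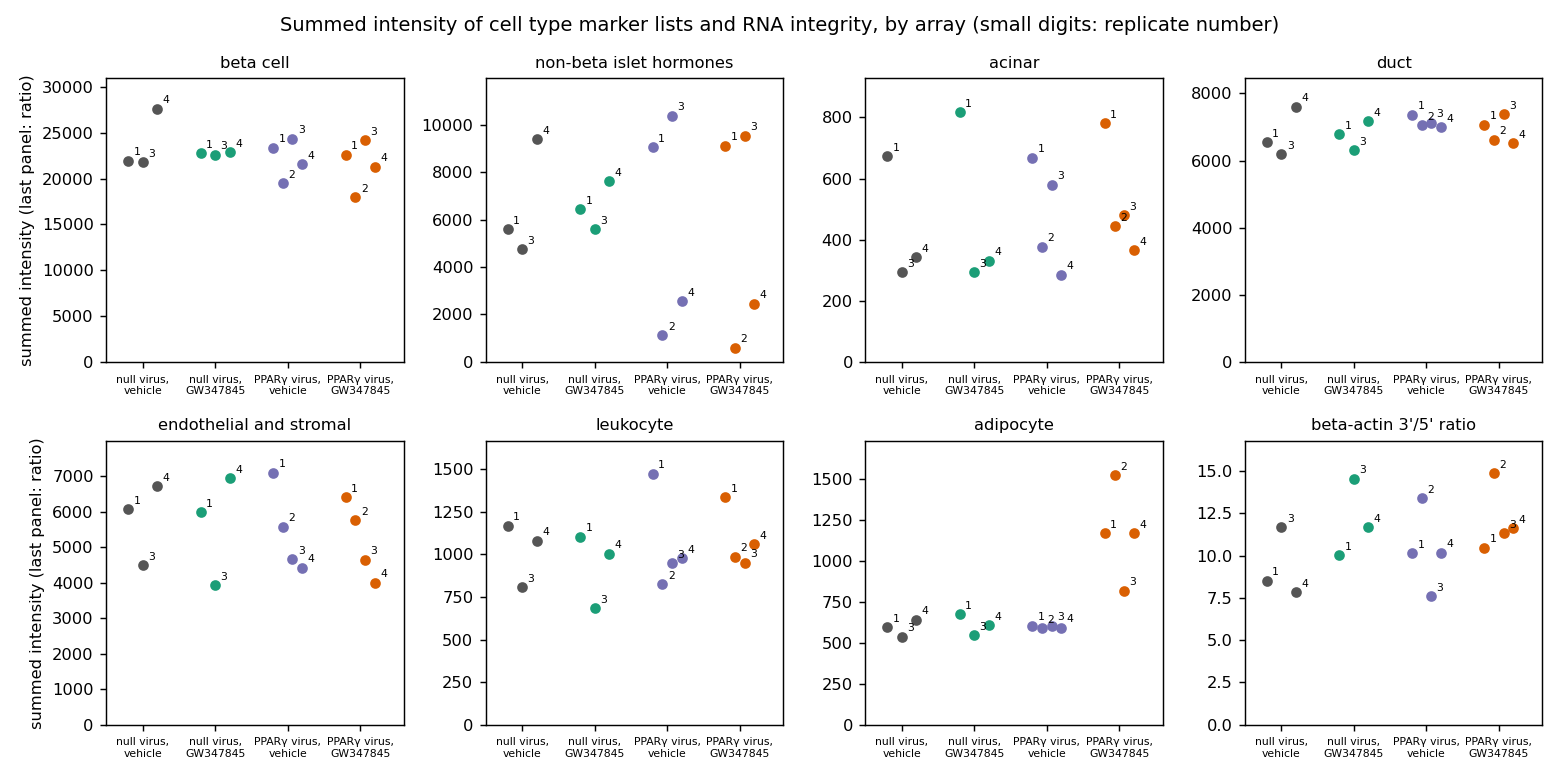
Summed intensity of 7 marker lists, and the ratio of 3′ to 5′ signal of the beta-actin controls, for each array of the 4 groups (small digits are replicate numbers, axes start at 0). Islet hormones other than insulin are low in replicates 2 and 4 of both PPARγ virus groups, and the adipocyte sum, which holds Fabp4, is 819.9 to 1526.4 with receptor and agonist against 537.4 to 640.5 in controls.

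Markers of other cells and of RNA quality were compared over the same 7 arrays, 13 measures in all, with exact two-sided permutation tests whose smallest possible p is 0.0571. The adipocyte sum was 591 ± 51.7 (SD, n = 3) in controls and 1171 ± 288 (SD, n = 4) in treated arrays (exact p = 0.0571, adjusted 0.743). Without Fabp4 it was 574 ± 46.9 (SD, n = 3) and 599 ± 103 (SD, n = 4) (exact p = 0.914). Fabp4 was the single call of 5 tested adipocyte markers (12 of 15 on the array). The leptin gene Lep lay between 1.3 and 2.7, the droplet coat gene Plin1 between 12.3 and 20.4 and Cebpa between 1.6 and 3.1 over all 7 arrays. Other members had higher means in treated arrays: Ucp1 34.2 ± 17.8 (SD, n = 4) against 11.2 ± 0.70 (SD, n = 3) and Cfd 32.4 ± 5.4 (SD, n = 4) against 18.1 ± 2.01 (SD, n = 3), neither tested because of low intensity, and Cebpb 161 ± 72.5 (SD, n = 4) against 104 ± 8.27 (SD, n = 3), which did not pass (0.52, adjusted p = 0.61). The part of these markers in the results was not tested. The ratio of 3′ to 5′ signal of beta-actin was 8.52, 11.7 and 7.83 in controls and 10.5, 14.9, 11.3 and 11.6 in treated arrays (exact p = 0.229). That of Gapdh was 10.1 ± 0.40 (SD, n = 3) in controls and 9.49 ± 1.11 (SD, n = 4) in treated arrays (exact p = 0.343). In null virus with compound, which entered the model for the spread, replicate 3 had a Gapdh ratio of 18.9. The signal was thus well above 1 at the 3′ end in all these arrays, and its part in the results was not tested. For acinar and for endothelial and stromal markers, 0 of 4 and 0 of 19 tested members passed in limma, with 1 higher in each list at an unadjusted p under 0.05. The acinar one was Cela1, which read 95.4, 42.0 and 42.9 in controls and 351.1, 77.0, 181.5 and 100.7 in treated arrays, with overlap (1.35 ± 0.60, adjusted p = 0.567). It passed without PPARγ virus replicates 2 and 4 (2.09, adjusted p = 0.0493), while the summed acinar markers were 437 ± 206 (SD, n = 3) in controls and 517 ± 183 (SD, n = 4) in treated arrays (exact p = 0.514). The endothelial gene Plvap, chosen after its values were seen, read 98.2, 22.3 and 70.3 in controls and 238.4, 126.2, 199.4 and 148.9 in treated arrays (1.59 ± 0.42, adjusted p = 0.151).

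Among stress and growth lists limma called 0 of 21 endoplasmic reticulum stress genes, 0 of 11 clock genes, 0 of 25 cell cycle genes, 0 of 14 immediate early and heat shock genes and 0 of 20 chemokine, cytokine and NF-kappaB response genes. Over all 7565 genes tested, 53 rose (0.701%) and 4 fell. At that share lists of this size, here and above, would mostly hold 0 calls, so the zeros do not set these lists apart. Their medians were 0.06, 0.08, -0.17, -0.14 and -0.13. At an unadjusted p under 0.05, the numbers higher and lower were 2 and 0, 0 and 1, 1 and 0, 0 and 0, and 1 and 2 in the same order. Of all 10078 probe sets tested, 855 were under that p in either direction. The chemokine gene Cx3cl1, chosen after its values were seen, read 21.9, 9.9 and 20.6 in controls and 142.3, 40.1, 128.7 and 31.0 with receptor and agonist. Its treated replicates 1 and 3 were high and 2 and 4 low, without overlap with the controls, and it did not pass (1.81 ± 0.47, adjusted p = 0.144). Without PPARγ virus replicates 2 and 4 Cx3cl1 passed (2.71, adjusted p = 0.00214), and in no other alternative. The half-width of the 95% interval of a change was 0.38 at the median probe set, without adjustment for the number of probe sets tested. It was computed with the residual degrees of freedom, fewer than the moderated tests used, so it is slightly too wide. A call asks for more than this half-width. Changes such as 0.86 for Pnpla2, 0.62 for Slc25a20 and -0.67 for Pdx1 did not pass in the main model, though Slc25a20 and Pdx1 did in some alternatives. Differences under 0.38, and many larger ones, would therefore mostly not be detectable with these arrays.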

How the data were processed

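Total RNA of rat islets was hybridised to a rat expression array, and 16 columns, 4 per label group, were deposited. The deposited values are intensity values on a linear scale, 1 for each of 15923 probe sets. The authors had scaled each array, as the values show: the mean without the top and bottom 2% was 150.03 to 150.04. The sources used here do not name the array software or the genome build. The number of arrays limits the precision.

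Columns were assigned by label. The columns with replicate number 2 of null virus with vehicle and of null virus with compound were identical in all probe sets (no other pair in more than 0.936%), and both were left out, which left 14 arrays, although the design had been written for 16. Values were used as log2(value + 4.6), the 10th percentile of positive values, and fold changes are on this scale, which understates the change of dim genes. Of 10078 probe sets tested (above 39.3 in at least 4 arrays, 57 control probe sets left out), 8488 name 1 gene, 235 several and 1355 none. Names come from the platform annotation, checked by gene identifier (12748 of 12783 matched). One linear model with 4 group means was fitted in R 4.3.3 with limma 3.58.1 (trended empirical Bayes, Benjamini-Hochberg, threshold 0.05) and was tested on simulated data. Figures used Python 3.11.15 and matplotlib 3.10.9.

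The members, gene lists and tests were chosen with earlier results of these data known. Where a list gene had several probe sets, that of highest mean intensity stood for it. Named are all called genes, with values by array for the 20 largest rises, all falls and up to 4 called members a list, and up to 3 members a list of highest intensity that did not pass. Others are stated to be chosen after their values were seen. Alternatives changed the pseudocount, filter, normalization, arrays fitted, variance model, replicate block and each array left out. Deviations from group means were checked for pairing by replicate number, as correlations across probe sets. Same-numbered arrays of the groups compared gave 0.38, -0.14 and 0.13 for numbers 1, 3 and 4, so the numbers were not taken to pair these groups. Arrays of 1 virus with the same number, vehicle with compound, gave 0.45 to 0.47 with the null virus and 0.57 to 0.70 with the PPARγ virus. The model does not hold these pairs, and a random block for them (limma's duplicateCorrelation, consensus 0.53) was added after the data were seen.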

Additional observations from a re-analysis of the deposited data

Results flagged for a closer look

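In 134 groups of 4 arrays, taken over the called probe sets and both PPARγ virus groups, 5 held an array far from the other 3 by Dixon's criterion, where chance flags about 1 in 20 groups, or 6.7 here. Sgk2 read 70.1 in replicate 4 of PPARγ virus with compound, against 82.4, 82.3 and 83.5 in the other arrays. All 4 values were above the highest control value of Sgk2, 27.4. The other such arrays were in PPARγ virus with vehicle, which is not compared here. Cluh read 176.5 in replicate 3, with 203.2 to 205.7 in the others. Calml4 read 170.3 in the same replicate, with 108.9 to 115.1 in the others. Stard3nl read 334.0 in replicate 1, with 386.7 to 394.2 in the others. Hsd17b10 read 376.6 in replicate 4, with 311.5 to 317.4 in the others.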

How the results depend on the processing

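The 67 calls (61 higher, 6 lower) were recounted under each alternative, and totals not given here lay within 1.5 times. The filter asking for every array above the limit, which tested 8120 probe sets, left 42 calls, 36 of them higher. Calls toward lower intensity numbered 12 with no filter, 3 with median centring, 1 with the 7 compared arrays alone, 11 with all 16 columns and 10 with array weights. Leaving out each array in turn gave 39 to 71 calls, 37 to 65 higher, 0 to 8 lower, and 11 to 16 lipid handling genes higher. Same-numbered arrays of 1 virus deviated together. Those of the groups compared gave mixed correlations (0.38, -0.14 and 0.13 for numbers 1, 3 and 4), and the labels do not say whether the numbers pair them. A random block of virus and number, chosen after seeing the data, gave 67 calls (58 higher, 9 lower) and 16 lipid handling genes higher. With a replicate block over all 4 groups there were 177 calls (128 higher, 49 lower), the 67 among them. Ech1, Aqp7, Plvap, Soat1, Pdx1 and Cela1, which were not among the 67, passed there (adjusted p 0.0099 to 0.048). Aqp7, Slc25a20 and Pdx1 also passed with all 16 columns (0.0229 to 0.0329). With the replicate block on replicates 1, 3 and 4 of the compared groups there were 11 (11 higher, 0 lower), with 5 lipid handling genes higher, and 53 of the 67 were tested. Only genes that did not pass changed sign, and the cause was not tested. With the hormone-poor arrays left out, Fabp5 was -0.069, Scd2 0.014, Ins1 0.0050, Ins2 0.048, Chgb 0.11, Gcg 0.35, Ppy 0.40, Pyy 0.84 and Cpt1a -0.0195. Leaving out single arrays, Fabp5 ran from -0.073 to 0.40, Hadh from -0.12 to 0.23, Ins1 from -0.17 to 0.038 and Ins2 from -0.098 to 0.046. With the replicate block on 3 replicates Ins1 was 0.0040 and Ins2 0.035, and Ins2 was 0.018 with the block over all groups, 0.019 with quantile normalization and 0.025 with array weights. With 3 control arrays and 4 treated arrays, exact tests of single values could not go below 0.0571.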
